A study of Mus musculus with 16 samples.

Results

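Residue 34 of histone H3.3 was compared across 4 single H3.3 transgenes in C3H10T1/2, a mesenchymal mouse cell line that can form fat, cartilage and bone cells. The 4 libraries with residue 34 changed, 2 of G34W (glycine to tryptophan) and 2 of G34R (glycine to arginine), were set against the 4 with residue 34 intact, 2 of K27R (lysine 27 to arginine) and 2 of wild-type H3.3. The genes described are the 12707 of 20325 in the deposited table with a mean value of at least 10 over these 8 libraries. The series holds 16 libraries in all. Cst6, with a mean of 10.04, lay just inside this limit and Ngb, with 9.96, just outside. All cells, wild type included, carried a lentiviral H3.3 transgene in addition to their own H3.3 genes, and all underwent 2 days of transduction and 4 days of selection in 1.5 µg/ml puromycin. The intact side holds a transgene that is itself mutated, at residue 27, so the comparison favours genes that differ from wild-type H3.3 and from K27R alike. Nothing in the labels tells separate transductions or cultures of 1 transgene apart, and the p-values below reflect only how far these libraries spread, which may be technical.

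H3.3 is the H3 variant that is placed on chromatin outside of DNA replication. Residue 34 carries no modification of its own but lies beside lysine 36, whose methylation is deposited in transcribed genes and hinders Polycomb repressive complex 2 (PRC2), the enzyme complex that methylates lysine 27. G34W is the histone mutation of giant cell tumour of bone and G34R that of a class of paediatric high-grade glioma. The lysine that PRC2 methylates is lost in K27R. The series asks how H3.3 G34 changes alter transcription in mesenchymal cells.

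Values are expected read counts that the authors scaled by a median normalization. From the smallest step between values, depth was estimated at 26.02 to 33.8 M reads a library, with 14751 to 15261 genes above 0, and 3 reads correspond to 2.82 to 3.74 in the deposited unit. The difference within the wild-type pair was not larger than sampling noise at the 2772 genes whose reads were whole in both libraries (chi-square per degree of freedom 0.961, p = 0.930), though it was over all 12468 genes with at least 20 reads (1.23 per degree of freedom, p = 4.19e-63). The pair was averaged and counted once. Over all genes the G34R and K27R pairs had 5.78 and 3.14 per degree of freedom and the G34W pair 259.9. Mesenchymal markers were high in all 8 libraries, with Vim between 189728 and 229394 on the changed side and between 130542 and 165968 on the intact side, except Nt5e, which was at 15.0 or less in every library. Of markers of other cell types, Epcam, Ptprc, Cd3e, Myod1 and Kdr were at or near 0 throughout, but others were not. Over the 8 libraries Tek, an endothelial marker, was at 794 to 3037, Tubb3, a neural one, at 255 to 861 and Des, a muscle one, at 54.4 to 150. The 12 epithelial markers summed to 58.2 to 375 in G34-changed and 909 to 989 in intact libraries, and their part in the results was not tested. Of these markers Krt14 was at 2.82 to 171 in changed and 560.02 to 782 in intact libraries, and Cdh1 at 26.3 to 169 in changed and 161 to 299.9 in intact ones.

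G34W replicate 1 stood apart from all other libraries. On the first principal component (44.0% of the variance) it scored 76.7, against 9.34 for its replicate and 22.3 and 22.4 for G34R, while K27R lay at -54.0 and -55.7 and wild type at -10.7 and -10.3. The second component (27.97%) set wild type (-53.2 and -53.5) apart from all others, K27R included. The changed and intact sides were divided on the first of these components and not on the second, and on the first the distance within the G34W pair was larger than that between the sides' nearest libraries. The 24 adipocyte genes summed to 111309 in G34W replicate 1, against 48526 to 54752 in the other G34-changed libraries and 38179 to 41134 in the intact ones.

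**Figure D1:**
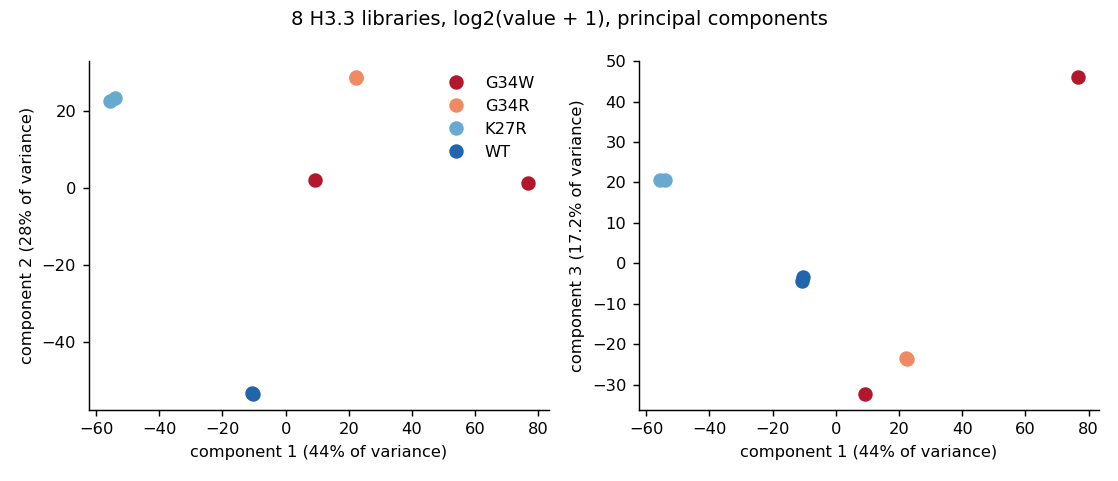
Principal components of log2(value + 1) over the 12707 genes for the 8 libraries, component 2 (left) and component 3 (right) against component 1, with the share of variance on each axis. G34W replicate 1 is alone at the right, at 76.7 on component 1, and the 2 points of G34R, K27R and wild type nearly coincide.

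Of the 12707 genes, 381 (3.0%) passed limma at an adjusted p under 0.05, 245 (1.93%) higher and 136 (1.07%) lower in G34-changed cells. The side means of the genes called differed by a median of 0.94 on the log2 scale among those higher and -1.20 among those lower. In 3346 genes (26.3%) the 4 libraries of one side did not overlap with the 4 of the other, 1724 higher (13.6%) and 1622 lower (12.8%), and all 381 genes called were among them. The fit took libraries of 1 transgene as correlated and estimated that correlation at 0.193. The G34R and K27R pairs were much closer than the G34W pair, and the count depends on this value. At correlations of 0.5 and 0.8, chosen after the data were seen, 28 genes (0.220%) and 3 genes were called. With each transgene averaged to 1 sample limma called 0 genes, with 2197 at an unadjusted p under 0.05 and a smallest adjusted p of 0.0529. A further limit is that the count was 2540 without both wild-type libraries, 236 without both G34W libraries and 1215 without both G34R libraries. Wild type entered as 1 averaged sample and K27R as 2, so K27R weighed more in the intact mean. The intact side thus held 1 sample without K27R, too few for a count to be compared, and 2 without wild type. The count was 24 and 31 without K27R replicates 1 and 2, 161 and 201 without G34W replicates 1 and 2, and 1456 and 1544 without G34R replicates 1 and 2. The correlation was estimated anew in each leave-out fit, from -0.486 (both G34R libraries out) to 0.935 (without G34W replicate 2). These counts thus reflect that estimate as well as the library left out. No gene called changed direction in any of these fits, which was fixed in advance because the sides of every gene called did not overlap. Of 63 genes called and described below, 31 and 28 were not called without G34W replicates 1 and 2, 49 and 47 without K27R replicates 1 and 2, and 0 without either G34R replicate. Without wild-type replicates 1 and 2, 1 and 0 were not called. The wild-type pair entered as 1 averaged sample, so these fits kept the 5 residual degrees of freedom of the main fit. Fits without a G34W, K27R or G34R library had 4, so the losses are not comparable. Because calls depend on the library left out, the genes below are described with their values in each library.

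**Figure D2:**
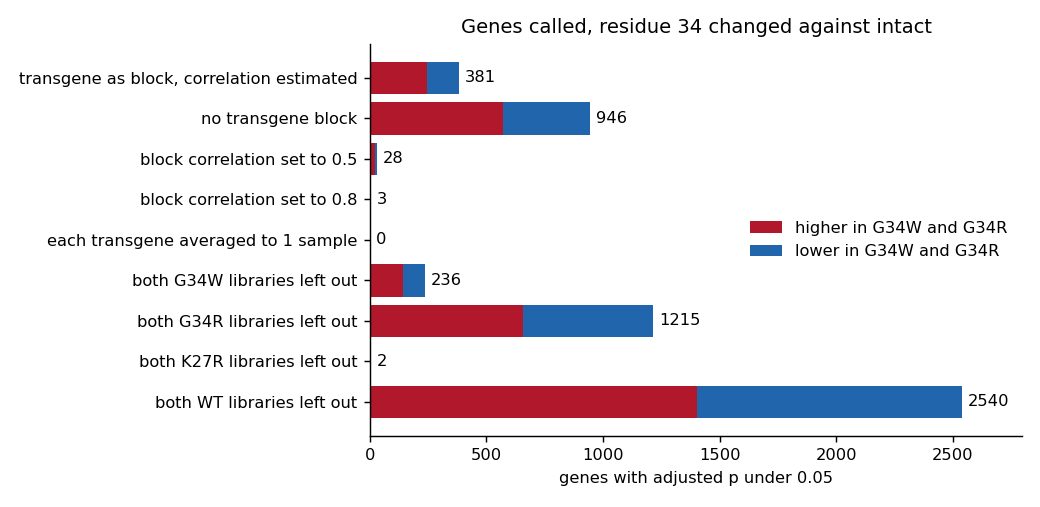
Number of genes with an adjusted p under 0.05 (limma, 12707 genes) when residue 34 changed is compared with intact, by how libraries of 1 transgene are treated and which transgene is left out; red, higher in G34W and G34R, and blue, lower. The count is 381 with the estimated correlation, 0 with each transgene as 1 sample and 2540 without wild type. Without K27R the intact side is 1 averaged wild-type sample, so that bar is not comparable with the others.

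Spp1 and Mest were among the 3 genes called at the estimated correlation, at 0.5 and at 0.8. Spp1, which encodes osteopontin, a secreted phosphoprotein of bone matrix, was at 1455 and 1333 in G34W and 1410 and 1501 in G34R libraries, against 9593 and 10585 in K27R and 7651 and 7895 in wild-type libraries. It was the gene with the smallest p of all (log2 fold change -2.68 ± 0.13 SE, limma adjusted p = 0.000676, 0.0279 at a correlation of 0.8), and the 4 changed libraries lay within a narrow band far below the intact ones. Mest, a paternally expressed imprinted gene of mesoderm, was at 4590 and 5234 in G34W and 4214 and 3995 in G34R libraries, against 201 and 246 in K27R and 92.0 and 89.1 in wild-type libraries. Its log2 fold change was 4.81 ± 0.33 (limma adjusted p = 0.00464), and the lowest changed library was far above the highest intact one. With each transgene averaged to 1 sample the adjusted p was 0.119 for Spp1 and 0.145 for Mest.

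The upstream windows of Spp1 and Mest, the genes with the smallest p in each direction, and of Tnfaip3, an NF-kB target treated further down, are printed here to show their CpG content and motifs. They are the 250 bases before a listed transcript start, from RefSeq on GRCm38.p6, all read 5′ to 3′ on the strand of the gene. Capitals mark CpG dinucleotides and matches, on either strand, to the NF-kB-like motif GGNNTTTCC and the AP-1 motif TGANTCA.
Mest, second of 3 listed starts, chr6:30737800-30738049, + strand: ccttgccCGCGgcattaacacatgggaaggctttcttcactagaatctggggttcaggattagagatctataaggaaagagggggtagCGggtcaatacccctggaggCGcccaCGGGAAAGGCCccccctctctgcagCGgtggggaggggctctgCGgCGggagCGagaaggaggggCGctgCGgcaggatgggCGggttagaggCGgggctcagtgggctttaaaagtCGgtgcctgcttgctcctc
Spp1, first of 2 listed starts, chr5:104434861-104435110, + strand: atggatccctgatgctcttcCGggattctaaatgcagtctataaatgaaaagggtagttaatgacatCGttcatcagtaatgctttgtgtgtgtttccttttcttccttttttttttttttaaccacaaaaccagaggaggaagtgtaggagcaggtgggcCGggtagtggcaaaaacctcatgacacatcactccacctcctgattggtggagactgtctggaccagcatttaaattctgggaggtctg
Tnfaip3, first of 2 listed starts, chr10:19015411-19015660, - strand: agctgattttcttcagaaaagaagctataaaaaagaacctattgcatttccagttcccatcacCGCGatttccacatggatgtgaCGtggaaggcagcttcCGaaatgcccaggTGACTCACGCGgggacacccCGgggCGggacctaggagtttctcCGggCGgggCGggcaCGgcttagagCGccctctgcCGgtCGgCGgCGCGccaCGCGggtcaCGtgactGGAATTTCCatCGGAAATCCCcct
The Mest window holds 14 CpG dinucleotides, the Tnfaip3 window 22 and the Spp1 window 3, against a median of 15.0 over the 11561 windows of the genes tested and 6.0 over all 32851 windows of this length in the table. NF-kB-like matches start 24 and 12 bases before the Tnfaip3 start and 134 bases before the Mest start, and 5.31% of the windows of genes tested and 4.93% of all windows hold at least 1. Tnfaip3 also has an AP-1 match 136 bases before the start, which 4.68% of the windows of genes tested and 6.75% of all windows hold. The starts shown were picked after their CpG and motif counts were seen. The first Mest start has 7 CpG dinucleotides and the second Tnfaip3 start 6, both without a match, and the third Mest start lies next to the one shown, with 14 and the same match. The second Spp1 start has 3 and no match. A match describes these letters and does not show that a factor binds there.

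Of the 28 genes called at a correlation of 0.5, 23 were higher and 5 lower. Olfml2b, an olfactomedin-like secreted protein, was at 1469 and 1208 in G34W and 1568 and 1586 in G34R libraries, against 223 and 182 in K27R and 308 and 310 in wild type (log2 fold change 2.61 ± 0.21, limma adjusted p = 0.00632). Mmp15, a membrane-anchored matrix metalloproteinase, was at 356 to 470 in changed and 75.5 to 116 in intact libraries. Penk, the precursor of enkephalin peptides, was at 429 to 571 in changed libraries, against 135 to 146 in intact ones. Chst8 and Chst11, sulfotransferases that modify carbohydrate chains, were at 113 to 197 against 7.44 to 12.6 and at 4557 to 4882 against 1383 to 2288. Tmed1, a cargo receptor of the early secretory pathway, was at 1744 to 1935 in changed and 780 to 809 in intact libraries. Nuak1, a kinase related to AMPK, was at 15454 to 17712 in changed and 7277 to 8421 in intact libraries, and Tmod2, which caps actin filaments, at 1007 to 1195 against 375 to 461. Scrn1 was at 617.8 to 649 against 239 to 264. Bmp1, the protease that trims procollagen, differed less (9244 to 10225 in changed and 5519 to 5621 in intact libraries, log2 fold change 0.78 ± 0.09). On the lower side Nupr1, a stress-induced chromatin protein, was at 914 to 1121 in changed libraries, against 2386 to 4032 in intact ones. Tuba4a, an alpha tubulin, was at 181 to 244 in changed libraries, against 526 to 587 in intact ones.

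**Figure D3:**
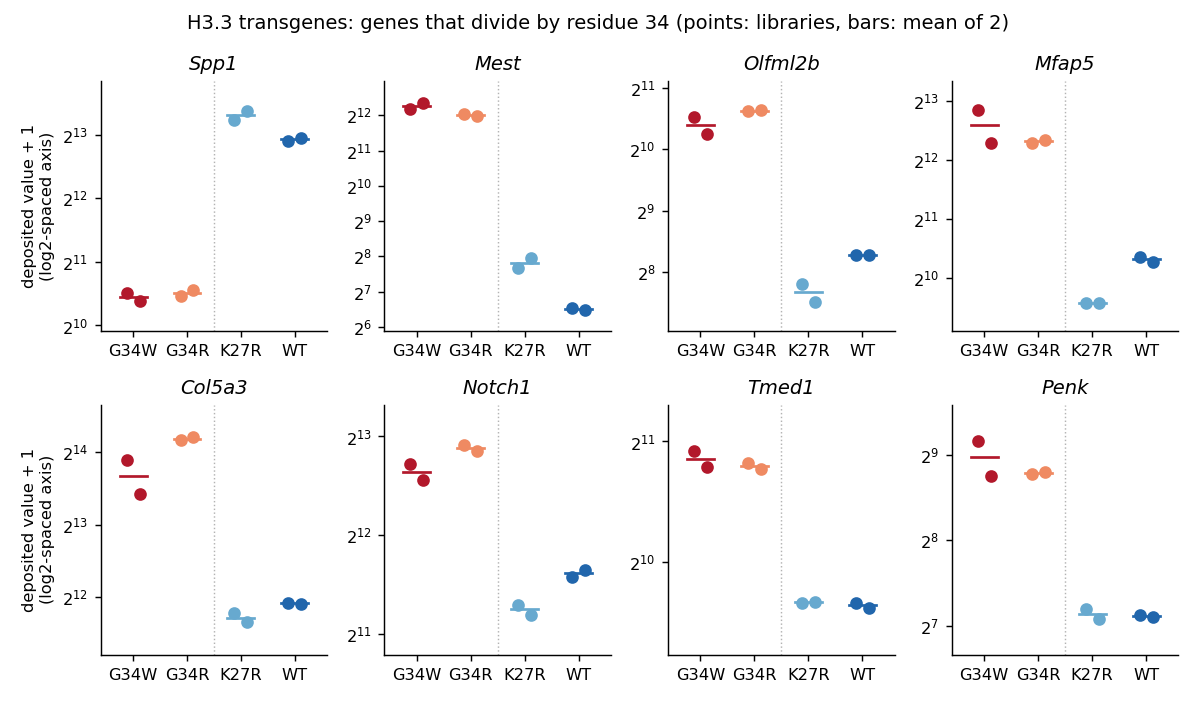
Deposited value plus 1, on a log2-spaced axis, in each library (points) and on average per transgene (bars) for 8 genes called at a block correlation of 0.5, which were picked from the 28 after their values were seen. In every panel the 4 points of G34W and G34R lie on one side of the 4 points of K27R and wild type, as in Spp1 at 1333 to 1501 against 7651 to 10585.

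Past these, the 12 largest changes upward among genes called were led by Btn1a1, a butyrophilin of milk fat, which was at 142 and 35.0 in G34W and 87.3 and 119.6 in G34R libraries (log2 fold change 5.44 ± 0.60), with 4 reads in all over the K27R and wild-type libraries. After Mest came Fbxo2, a ubiquitin ligase subunit that binds glycoproteins, at 127 to 577 in changed and 19.4 to 26.6 in intact libraries, then Chst8. Islr, a secreted leucine-rich repeat protein of mesenchymal stroma, was at 40385 and 23147 in G34W and 28907 and 29672 in G34R libraries, against 1947 and 1927 in K27R and 5521 and 5692 in wild type (log2 fold change 3.38 ± 0.42). Entpd2, an enzyme that degrades extracellular ATP, was at 114 to 288 in changed libraries and 8.72 to 30.8 in intact ones. Ptprz1, a receptor tyrosine phosphatase of the nervous system, was at 45.3 to 114 in changed libraries, against 3.74 to 10.6 in intact ones. Pi15, a secreted protease inhibitor, was at 1294 to 2439 against 188 to 418. Fxyd6 and Kcne2, small regulators of ion transport, were at 995 to 3954 against 245 to 491 and at 83.1 to 246 against 15.0 to 42.6. Matn4 is given with the cartilage genes. The log2 fold changes of the 12 ran from 2.72 (Kcne2) to 5.44, with limma adjusted p from 0.00464 to 0.0454. Of these 12 genes, 2 were called at a correlation of 0.5, Mest and Chst8.

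The 12 largest changes downward were taken likewise, with a mean of at least 50 on the higher side. Prl2c3 (log2 fold change -4.93), given further down, was below that mean. The 12 were led by Serpina3i, a member of the Serpina3 cluster of protease inhibitors, at 1.03 and 4.37 in G34W and 1.13 and 2.42 in G34R libraries, against 41.1 and 35.5 in K27R and 375 and 334 in wild type (log2 fold change -4.90 ± 0.91). All 4 changed libraries were near or below the value of 3 reads. F5, coagulation factor V, was at 0 to 6.56 in changed libraries, against 113 and 107 in K27R and 25.2 and 32.0 in wild type. Lama1, a laminin chain of basement membranes, was at 4.83 to 36.1 in changed and 88.1 to 181 in intact libraries. Scel, sciellin of the cornified envelope, was at 6.47 to 38.3 against 131 to 150, and Kcnt2, a potassium channel, at 12.1 to 31.7 against 101 to 232. Pde3b, a phosphodiesterase that degrades cyclic AMP, was at 27.3 to 101 against 308 to 431. Tspan7, a tetraspanin, was at 59.1 to 174 against 466 to 1189, Steap1, a metalloreductase, at 33.8 to 109 against 217 to 609, and Arnt2, a partner of bHLH-PAS transcription factors, at 83.0 to 389 against 1115 to 1220. The other 3 are Prg4, Ccl7 and Fosl1, given with their groups. None of these 12 was called at a correlation of 0.5, and their limma adjusted p ran from 0.0264 (Kcnt2) to 0.0459 (Lama1).

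Elastic fibre genes were the list with the most members called. Of 18 tested, 4 rose (Mfap5, Loxl1, Emilin1 and Eln) and none fell, 8 were higher and 1 lower without overlap, and the median log2 fold change was 0.60, against 0.01 over all genes, of which 1.93% rose and 13.6% were higher without overlap. Mfap5, a microfibril protein, was at 7366 and 4962 in G34W and 4982 and 5154 in G34R libraries, against 763 and 763 in K27R and 1302 and 1231 in wild type (log2 fold change 2.58 ± 0.24, limma adjusted p = 0.00871), and was called at a correlation of 0.5. Eln, elastin itself, was at 141239 and 153881 in G34W and 326260.0 and 318780.0 in G34R libraries, against 63646 and 56629 in K27R and 39433 and 39418 in wild type. Its log2 fold change was 2.09 ± 0.37 (limma adjusted p = 0.0344), and the G34R libraries were higher than the G34W ones. Loxl1, which cross-links elastin, was at 19085 to 24827 in changed and 9688 to 11220 in intact libraries, and Emilin1, an elastin-associated glycoprotein, at 4203 to 5069 against 2894 to 2982. Eln, Loxl1 and Emilin1 were not called at a correlation of 0.5 (adjusted p = 0.0856, 0.0760 and 0.0853). Without G34W replicate 1 the adjusted p of Eln was 0.0567 and that of Emilin1 0.0663, and without G34W replicate 2 that of Emilin1 was 0.0828. Among 20 collagen chains only Col5a3 rose, at 15201 and 10933 in G34W and 18391 and 18884 in G34R libraries, against 3510 and 3220 in K27R and 3874 and 3854 in wild type (log2 fold change 2.13 ± 0.21), and none fell. Of 19 matrix proteases and inhibitors, Adamts4, an aggrecan-cleaving protease, rose (164 to 286 in changed and 49.0 to 92.2 in intact libraries).

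Of 18 smooth muscle and myofibroblast genes, 2 rose and none fell, 11 were higher without overlap, and the median log2 fold change was 0.81. Over all genes 1.93% rose and 13.6% were higher without overlap. Tagln, transgelin, an actin-binding protein of smooth muscle, was at 2560 and 1375 in G34W and 2030 and 2208 in G34R libraries, against 662 and 658 in K27R and 453 and 433 in wild type (log2 fold change 1.81 ± 0.27, limma adjusted p = 0.0258). Tpm1, tropomyosin, was at 42158 to 57703 in changed and 19926 to 28837 in intact libraries. Neither was called at a correlation of 0.5 (adjusted p = 0.0903 and 0.102). In bulk RNA, a larger share of cells of a type and more RNA per cell cannot be told apart.

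Cartilage and bone genes moved in both directions. Of 17 chondrocyte genes, Matn4 rose and Prg4 fell, while over all genes 1.93% were called higher and 1.07% lower. Matn4, a matrilin of cartilage matrix, was at 9347 and 3640 in G34W and 7085 and 6519 in G34R libraries, against 457 and 431 in K27R and 1379 and 1385 in wild type (log2 fold change 3.21 ± 0.51, limma adjusted p = 0.0280). Prg4, lubricin of the joint surface, was at 13.4 and 57.4 in G34W and 28.0 and 28.0 in G34R libraries, against 674 and 674 in K27R and 202 and 241 in wild type (log2 fold change -3.94 ± 0.64). Spp1 was the only one of 15 osteoblast genes called, in either direction. Sox9, the transcription factor of cartilage, overlapped between the sides because wild type (9338 and 9433) was within the range of the changed libraries (8110 to 11154) and K27R (4693 and 4472) was not. Runx2, the transcription factor of bone, was at 2200 to 2451 in changed and 1796 to 2085 in intact libraries and was not called (limma adjusted p = 0.143).

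Signalling genes were called in ones and pairs, and over all genes 1.93% were called higher and 1.07% lower. In the Notch pathway, in which a receptor cleaved on contact with a ligand on a neighbouring cell drives transcription, 2 of 13 tested genes rose and 1 fell. Notch1, a receptor, was at 6745 and 6045 in G34W and 7715 and 7407 in G34R libraries, against 2515 and 2342 in K27R and 3061 and 3210 in wild type (log2 fold change 1.38 ± 0.14, limma adjusted p = 0.00987), and was called at a correlation of 0.5. Hey1, a target repressor, was at 1299 and 833 in G34W and 893 and 955 in G34R libraries, against 122 and 120 in K27R and 296 and 347 in wild type (log2 fold change 2.49 ± 0.38). Of the ligands, Jag2 fell (41.3 to 105 in changed and 203 to 376 in intact libraries, log2 fold change -2.19 ± 0.41), and Jag1 was at 9090 to 14622 against 6252 to 6776 with an adjusted p of 0.0585. Jag2 was not called without G34W replicate 1 or 2 (limma adjusted p = 0.237 and 0.120). Of 24 Wnt genes the receptor genes Fzd8 and Lrp5 rose, at 4860 to 6307 against 2019 to 3591 and at 8570 to 12293 against 5397 to 6549. Boc, a co-receptor for Hedgehog ligands, was the only one of 10 Hedgehog genes called (8733 to 11301 in changed and 2589 to 4609 in intact libraries). Acvr1, a BMP type I receptor, was the only one of 23 TGF-beta and BMP genes called (log2 fold change 0.52 ± 0.10), and Ephb3 and Unc5c, receptors for ephrins and netrins, the only ones of 34 axon guidance genes (0.72 ± 0.12 and 0.45 ± 0.09), all 3 higher.

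Inflammatory genes were lower where called. Of 24 tested NF-kB chemokines and inflammatory genes, 3 fell (Ccl7, Tnfaip3 and Ccl20) and none rose, 9 were lower and 1 higher without overlap, and the median log2 fold change was -0.52. Over all genes 1.07% fell and 12.8% were lower without overlap. Ccl7, Tnfaip3 and Ccl20 were not called at a correlation of 0.5 (limma adjusted p = 0.0903, 0.0918 and 0.154), nor without G34W replicate 1 (0.128, 0.118 and 0.401) or 2 (0.113, 0.129 and 0.432). Ccl7, a chemokine for monocytes, was at 72.3 and 35.0 in G34W and 64.6 and 103 in G34R libraries, against 406 and 403 in K27R and 1069 and 1111 in wild type (log2 fold change -3.17 ± 0.51, limma adjusted p = 0.0280). Tnfaip3, the ubiquitin-editing inhibitor A20 of NF-kB signalling, was at 131 to 213 in changed and 337 to 481 in intact libraries (log2 fold change -1.34 ± 0.23). Ccl20 had 3 reads over the 4 changed libraries and 88 over the intact ones. Scaled for depth, the ratio of these read totals, intact over changed, had a 95% counting interval of 9.53 to 142. The ratio of its side means, with the wild-type pair counted once, was 23.4. Ccl2, a neighbour of Ccl7 in function, was at 138 and 133 in G34W and 565 and 755 in G34R libraries, against 1084 and 1094 in K27R and 7148 and 7007 in wild type. Its sides did not overlap, but K27R lay nearer to G34R than to wild type and it was not called (log2 fold change -2.88 ± 0.90, limma adjusted p = 0.121). Cxcl5, a neutrophil chemokine, was at 924 and 61.2 in G34W and 72.2 and 60.4 in G34R libraries, against 225 and 282 in K27R and 16137 and 16052 in wild type, so that the sides overlapped (limma adjusted p = 0.301). Cxcl1, another, was at 105 to 671 in changed libraries, against 718 and 811 in K27R and 5427 and 5732 in wild type (adjusted p = 0.155). Of 4 genes of the Serpina3 cluster only Serpina3i was called. Serpina3g was at 4.69 and 9.85 in G34W and 42.6 and 22.9 in G34R libraries, against 144 and 171 in K27R and 1972 and 1983 in wild type, and missed the threshold (limma adjusted p = 0.0679). Serpina3n overlapped between the sides, at 21.9 to 33.4 in changed libraries, against 31 and 49.8 in K27R and 191 and 184 in wild type. Fosl1, an AP-1 subunit, was the only one of 23 immediate early genes called, at 14.7 and 67.9 in G34W and 58.1 and 54.4 in G34R libraries, against 312 and 332 in K27R and 408 and 443 in wild type. Prl2c3, a proliferin, was at 0 in all 4 changed libraries and at 14.9 to 75.9 in the intact ones, which is at least 10.6-fold lower in changed libraries against the value of 3 reads per library.

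In growth control, Cdk6, a kinase that phosphorylates RB, fell, at 30.0 and 63.4 in G34W and 44.2 and 38.7 in G34R libraries, against 215 and 254 in K27R and 178 and 202 in wild type (log2 fold change -2.32 ± 0.33, limma adjusted p = 0.0240). It was the only one called of 19 genes of the p53 and RB axis, while over all genes 1.93% were called higher and 1.07% lower. Among 6 cyclin-dependent kinase inhibitors Cdkn2d, p19 of the Ink4 family, rose (1408 to 1897 in changed and 841 to 1095 in intact libraries, log2 fold change 0.82 ± 0.15). Cdkn2b, p15 of the same family, was at 61.9 and 44.8 in G34W and 162 and 169 in G34R libraries, but also at 146 and 135 in K27R, and at 0 in both wild-type libraries. Cdkn2a was likewise at 37.5 and 39.4 in G34W and 142 and 139 in G34R libraries, against 115 and 69.8 in K27R and 0.968 and 0 in wild type. Both were not called between the sides (limma adjusted p = 0.503 and 0.467), and the K27R libraries were within the range of the changed ones. Robo1, a receptor of axon guidance, was at 121 to 254 in changed libraries, against 69.1 and 74.8 in K27R and 0 and 1.94 in wild type. Its sides did not overlap, and the distance within the intact side was larger than that from K27R to the changed libraries (log2 fold change 3.32 ± 1.32, limma adjusted p = 0.185). Cdkn1a, p21, was at 5952 to 7768 in changed and 9188 to 10307 in intact libraries with an adjusted p of 0.0602. Of 27 S phase genes 8 were lower without overlap (median log2 fold change -0.36), against 12.8% of all genes, and none was called. No member of the G2 and M phase list (25 tested) was called.

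**Figure D4:**
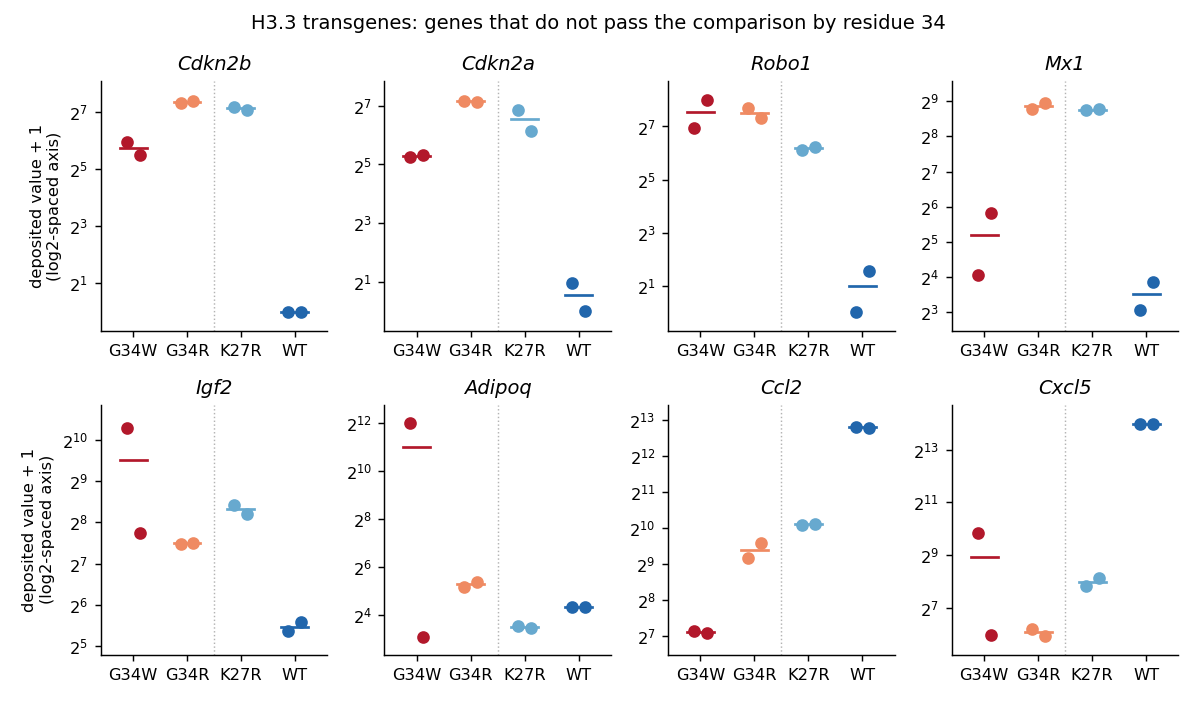
Deposited value plus 1, on a log2-spaced axis, in each library (points) and on average per transgene (bars) for 8 genes that did not pass the comparison by residue 34, picked after their values were seen. K27R lies with G34W and G34R for Cdkn2b (135 and 146, against 0 in both wild-type libraries), while Igf2 and Adipoq are high in 1 G34W library.

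Among chromatin genes, calls were few, as over all genes (1.93% higher and 1.07% lower). None of 11 PRC2 genes was called, and the median log2 fold change was -0.23. Ezh2, the PRC2 methyltransferase, was at 1304 to 2004 in changed and 2006 to 2098 in intact libraries (log2 fold change -0.35 ± 0.17, limma adjusted p = 0.242). Eed was at 864 to 1086 in changed and 1205 to 1244 in intact libraries (adjusted p = 0.164). Suz12 was at 1610 to 2257 in changed and 2537 to 2730 in intact libraries (adjusted p = 0.135). None of 19 PRC1 genes was called, none of 14 methyltransferases and demethylases of lysines 36 and 27, and none of 13 H3.3 genes and chaperones. H3f3a and H3f3b, the cells' own H3.3 genes, were at 13983 to 24461 in changed and 13093 to 16419.9 in intact libraries, and at 35895 to 54327 in changed and 25502 to 35803 in intact ones. Whether transgene reads were counted under either gene was not tested. Of 11 DNA methylation genes, Tet1, which oxidises methylated cytosine, rose (305 to 489 in changed and 128 to 163 in intact libraries, log2 fold change 1.43 ± 0.21, limma adjusted p = 0.0260). Mest was the only one called of 11 imprinted growth genes. Igf2, a growth factor of that list, was at 1250 in G34W replicate 1 and 212 in replicate 2, 177 and 181 in G34R, 341 and 294 in K27R and 39.7 and 46.5 in wild type, so that the sides overlapped. Of 10 Hox genes tested Hoxa3 rose, and of 33 mesodermal transcription factors Foxf1a (377 to 456 in changed and 94.7 to 168 in intact libraries) and Gata2 rose.

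In some lists whole groups of genes were shifted without a call. In the interferon-stimulated and adipocyte genes, transgenes or libraries of one side were unlike. None of 48 interferon-stimulated genes was called. Their median difference was -1.68 for G34W minus the intact mean and 0.88 for G34R minus the intact mean, and 2.43 for K27R minus wild type, all on the log2 scale. Mx1, an antiviral GTPase, was at 15.6 and 55.1 in G34W and 441 and 495 in G34R libraries, against 428 and 433 in K27R and 7.45 and 13.6 in wild type. Gbp2, an interferon-induced GTPase, was at 99.5 and 73.3 in G34W and 745 and 905 in G34R libraries, against 642 and 691 in K27R and 201 and 236 in wild type. High and low libraries were thus found on both sides. None of 22 adipocyte genes was called, with a median difference of 1.30 for G34W and 0.18 for G34R. Adipoq, adiponectin, was at 4082 in G34W replicate 1 but at 7.65 in replicate 2, at 35.6 and 41.1 in G34R, at 10.6 and 9.97 in K27R and at 19.4 and 19.4 in wild type. Pparg, the nuclear receptor of fat cells, was at 2384 in G34W replicate 1 and at 582 to 950 in the other changed libraries, against 598 to 886 in intact ones. Of 40 cytosolic ribosomal protein genes 28 were lower without overlap, against 12.8% of all genes, and none higher, with a median log2 fold change of -0.50, and none was called. Their medians were -0.73 for G34W and -0.23 for G34R, both lower, and 0.07 for K27R minus wild type. None of the 40 had a log2 fold change above 0. In all, 23 of the 46 lists had no member called, and the other 23 had 35 members called, 25 higher and 10 lower, or 4.45% of the 786 tested, near the 3.0% of all genes. Slc30a1, a zinc exporter in the metallothionein list, rose (934 to 1129 in changed and 587 to 720 in intact libraries). It was the only 1 of 4 tested members above 0, and the median log2 fold change of the list was -0.57. Mt2 was at 44.1 to 290 in changed and 501 to 1856 in intact libraries (-2.50) and was not called (limma adjusted p = 0.117).

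**Figure D5:**
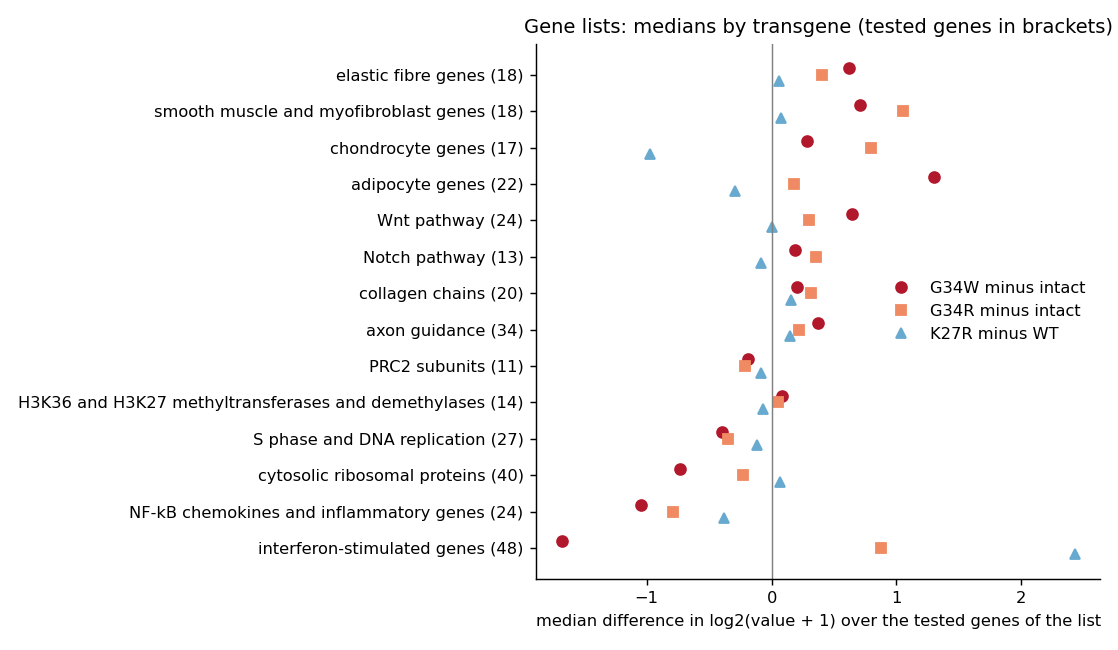
Median difference in log2(value + 1) over the tested genes of 14 lists, for G34W and G34R, each minus the mean of the intact side, and for K27R minus wild type, which shows the distance within the intact side. G34W and G34R are shifted alike in elastic fibre and smooth muscle genes, and the interferon-stimulated genes are at -1.68, 0.88 and 2.43.

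The clustered protocadherins, cell-surface adhesion molecules encoded side by side in large arrays on chromosome 18, were noticed after their values were seen and have no test as a group. Of 20 gamma-cluster genes 7 were called and of 19 beta-cluster genes 3, all higher, and all 39 had a log2 fold change above 0, with a median of 0.88 in the gamma and 1.33 in the beta cluster. Of the 12707 genes tested, 1.93% were called higher and 6424 had a log2 fold change above 0. Pcdhgc3 was at 22635 to 26659 in changed and 11768 to 14920 in intact libraries (log2 fold change 0.89 ± 0.13) and Pcdhb16 at 1409 to 2305 against 860 to 953. Gamma-cluster transcripts share their constant exons, so reads can be divided between these genes by estimate and their values are not independent. None was called at a correlation of 0.5. Without G34W replicate 1 the medians were 0.82 and 0.96.

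The genes called moved alike in both mutants, which the comparison itself favours. Among the 245 genes higher and the 136 lower, the 2 mutants differed from each other by a median of 0.15 and 0.14 on the log2 scale, against 0.16 over all genes tested, and K27R from wild type by 0.22 and 0.28, against 0.25 over all. By contrast H3.1 G34W, the same change in the replication-dependent H3.1, shares no library with the comparison. In H3.1 G34W minus H3.1 wild type, with 2 libraries each, the genes higher in H3.3 had a median difference of 0.09 and 148 of 245 (60.4%) were above 0, against 49.4% of all genes. Of the 136 lower genes, 79 (58.1%) were below 0, against 50.04% of all, with a median of -0.08. The libraries within each H3.1 pair differed strongly. Over all genes they had 214.8 (H3.1 G34W) and 225.8 (H3.1 wild type) chi-square per degree of freedom, against 259.9 in the H3.3 G34W pair. Spp1 was at 6715 and 2525 in H3.1 G34W and 11594 and 12113 in H3.1 wild type, and Mest at 226 and 731 against 125.1 and 125.1. Eln, Matn4 and Mfap5 had log2 differences of 0.50, -0.04 and -0.36 in H3.1, at levels below those of all H3.3 single-transgene libraries. Over the H3.1 libraries Eln was at 9.77 to 26.9, Matn4 at 10.4 to 26.2 and Mfap5 at 203 to 429. At such low levels the differences of Eln and Matn4 cannot show whether the change is shared. The smooth muscle and myofibroblast list, higher in H3.3, had a median difference of -0.68 in H3.1, and the elastic fibre list one of 0.24. Tagln was at 7129 and 1582 in H3.1 G34W and 6396 and 11399 in H3.1 wild type, so that the pairs overlapped. The double mutants share residue 34 with G34W. Mest was at 1144 and 1200 in H3.3 G34W K27R and 2364 and 2393 in H3.3 G34W K36R, within the gap between the changed and intact libraries. Spp1 was at 21420 and 19630 in G34W K27R, above all intact single-transgene libraries, and at 4817 and 4830 in G34W K36R. Islr was at 5072 and 5117 in G34W K27R and 2916 and 2967 in G34W K36R, both in the range of the intact side. Notch1 was at 3155 and 3072 in G34W K27R and 1433 and 1388 in G34W K36R, also within or below the intact range.

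A second deposited table lists 180 genes selected by the authors with the same values. Of the 156 tested here, 39 were called higher and 18 lower, which is 36.5%, against 3.0% of all genes. The list was chosen on these libraries, so this is no independent evidence of a difference between the sides.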

How the data were processed

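Polyadenylated RNA of C3H10T1/2 cells was sequenced. Per the submitters' processing notes, expression was estimated with RSEM 1.2.4 on mm9. The deposited signal values are expected counts that the authors scaled by a median normalization, per the file names. The aligner and annotation are not given in the sources used here. Values were whole multiples of 1 read (within 0.01) for 42.1% to 47.1% of those above 0, so a count test was not run. No column of another sample was present.

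Log2(value + 1) was tested with limma 3.58.1 in R 4.3.3 (statmod 1.5.0), two-sided, with transgene as block, wild type averaged to 1 sample, eBayes with trend and robust, and Benjamini-Hochberg adjustment over 12707 genes at a threshold of 0.05, with 5 residual degrees of freedom. The test was checked on simulated data. There libraries of 1 transgene were only weakly correlated, so the check does not cover the higher correlations at which few genes were called. TMM factors for 1 alternative were computed on the deposited values. Sides were called separate without overlap if all 4 libraries of one lay above all 4 of the other. Fold changes are on the log2(value + 1) scale, which understates low genes. Intervals and the floor of 3 reads per library cover counting error only. Named genes are the 12 largest changes called in each direction with a mean of at least 50 on the higher side and no overlap, the smallest p in each list told, and fixed genes, without provisional symbols. A few genes that these rules pick are not reported here. Genes picked otherwise are those called at a correlation of 0.5, the protocadherins and those in plots. The members, 46 lists and tests were chosen with earlier results of these data known. Replicate numbers did not pair libraries (correlations of -0.0305 to 0.0363 between replicate differences). RefSeq windows matched 9006 of the 12707 genes by symbol (66.1% of those called higher and 69.9% of those lower), too few to compare promoters between sets.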

Additional observations from a re-analysis of the deposited data

Results flagged for a closer look

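In 7 of the genes named, 1 of the 4 G34-changed libraries stood apart, with a gap to its neighbour that was a large part of the range of the 4. The gap, as a share of the range on the log2 scale, was 0.899 for Fxyd6 (995 in G34W replicate 1, 3440 to 3954 in the others), 0.853 for Fosl1 (14.7 in G34W replicate 1) and 0.904 for Mfap5 (7366 in G34W replicate 1). It was 0.872 for Penk and 0.907 for Igf2, both highest in G34W replicate 1, and 0.935 for Cxcl5 (924 in G34W replicate 1). For Unc5c, highest in G34W replicate 2, it was 0.933. Chance alone gives such a gap in about 1 of 20 groups of independent libraries. The 4 here are 2 pairs, and the G34R pair nearly coincided (correlation 0.996), so that rate does not hold for them.

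In 4 of the genes called and named with a value of at least 50 in 1 or more H3.1 libraries, both H3.1 G34W libraries lay on the other side of both H3.1 wild-type libraries than in H3.3, and the difference was not tested. Serpina3i did so too below that level, at 7.41 and 37.3 in H3.1 G34W and 1.53 and 2.98 in H3.1 wild type. Lama1 and Kcnt2, lower in G34-changed H3.3 cells, were higher by 2.51 and 2.86 on the log2 scale in H3.1 G34W (35.2 and 161 against 11.4 and 13.7 for Lama1). Chst11 and Hey1, higher in G34-changed H3.3 cells, had log2 differences of -0.591 and -0.846 in H3.1 G34W minus H3.1 wild type.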

How the results depend on the processing

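The 381 calls were 374 and 380 with pseudocounts of 0.5 and 5, 445 without a filter, 350 with a minimum mean of 50, 392 with TMM, 315 with quantile normalization, 358 without trend and robust and 394 with wild type as 2 samples. They were 28 and 3 at set block correlations of 0.5 and 0.8 (chosen after the data were seen), 0 with each transgene averaged to 1 sample, 946 without a transgene block, 1235 with one term per transgene and 188 with a replicate block, although replicate numbers did not pair the libraries. Leaving out both libraries of G34W, G34R or wild type gave 236, 1215 and 2540, and leaving out each library gave 24 to 1544. Without both K27R libraries the intact side held 1 averaged wild-type sample, too few for a count to be compared. The estimated block correlation, 0.193 in the main fit, differed between these fits. It was 0.922 and 0.935 without G34W replicates 1 and 2, and -0.373 and -0.38 without G34R replicates 1 and 2. Without both libraries of G34W, G34R, K27R or wild type it was 0.877, -0.486, -0.2445 and -0.128. The cause of the differences in count was not tested. None of the genes called reversed in any of the 26 alternatives. Because their sides did not overlap, the direction could reverse only where the values were rescaled, by TMM or quantile normalization. Of the 1633 values of 63 named genes called, 1165 stayed past the threshold and 468 did not. A side left with 1 library of a transgene is assumed to vary like the others. Genes near 3 reads, such as Serpina3i, F5, Ccl20, Prl2c3 and Btn1a1 on their low side, are limited by depth.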
